A study of Mus musculus with 5 samples.

Results

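The genes described here are the mouse genes named Zfp followed by a number, measured in whole hearts of NZB_W mice with lupus nephritis and of healthy NZW mice. They were chosen by name and brightness. The arrays hold 304 genes whose annotated symbol is Zfp and a number, with Zfp36 left out because it encodes an mRNA-destabilizing protein of another family. The brightest probe set, the one with the highest mean over the 5 arrays, stood for each gene, and 218 of the 304 were kept because that probe set lay above the median of all probe sets of the array on at least 2 arrays. The 218 are among 11897 genes kept by the same rule, of 18194 genes on the arrays with a probe set of a single symbol. The values that chose them are their own levels, so the levels are given as a description. Of the 218, 206 lay above the median on all 5 arrays, 6 on 4, 4 on 3 and 2 on 2, and none was kept through the arrays of 1 group alone.

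The NZB_W group was 3 untreated NZB_W females with moderate kidney injury by Austin scoring, aged 12 to 15 weeks, named NZB/W F1 in the series title, so offspring of NZB and NZW parents. The NZW group was 2 untreated NZW females of matched age with healthy kidneys. All hearts were bled and perfused with saline before RNA was taken. Genotype and kidney disease differ together between the groups and cannot be told apart, and NZW is one parent strain of the cross. Every difference given is therefore between these NZB_W and NZW mice as a whole. It is a difference in array signal, in which a strain difference in sequence under the short probes cannot be told apart from one in RNA level. The titles number the hearts as biological replicates, and the precision of each value is limited by having 3 arrays against 2.

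A zinc finger is a short protein fold held together by a zinc ion, and proteins with rows of them bind DNA or RNA in a sequence-specific way. A large share of the numbered Zfp genes encode proteins that join such fingers to a KRAB domain, which calls in the corepressor Trim28 and the histone methyltransferase Setdb1 to silence a target. These KRAB proteins are best known for silencing retrotransposons, and their genes lie in tandem clusters that differ between mouse strains in sequence and in gene number. Other numbered Zfp genes have no KRAB domain and act as activators, RNA-binding proteins, ubiquitin ligases or spindle factors. The genes share a naming scheme more than a function.

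The labelled tissue fitted its markers. All 10 cardiomyocyte markers were kept, with a median log2 level of 13.9 on each of the 5 arrays. The median kidney marker lay at 4.70 to 5.06 and the median liver marker at 4.50 to 5.06, near the array medians of 4.62 to 4.68. Correlations between arrays over the genes kept ran from 0.972 to 0.993 for all 11897 and from 0.967 to 0.987 for the 218. All 10 macrophage markers were higher in NZB_W hearts, 6 without overlap, with a median difference of 0.57, and NZB_W array 3 was highest. The median of the 10, relative to the midpoint of each gene's group means, was 0.05, 0.02 and 0.85 on NZB_W arrays 1, 2 and 3, against -0.08 and -0.43 on NZW arrays 1 and 2. The 3 B and plasma cell markers kept were higher in NZB_W hearts, with Igha at 1.13 (SE 0.163) and Jchain at 1.58 (SE 0.455) without overlap and Ighm at 0.20 (SE 0.457) with it. The 2 red cell markers kept had medians of 1.68, -0.42 and 2.41 on the NZB_W arrays, against -1.09 and -1.36 on the NZW arrays. Of the 7 fibroblast markers, 4 were higher and 3 lower, with 2 (28.6%, against 9.84% of all genes) lower without overlap. Their medians were -0.20, -0.15 and 0.20 on the NZB_W arrays, against -0.04 and -0.04 on the NZW arrays. Of the 6 endothelial markers, 5 were higher and 1 lower, with 2 (33.3%, against 7.59% of all genes) higher without overlap. Beta-actin control probes, whose 5' signal minus 3' signal falls with RNA breakdown, read -0.88, -0.89 and -1.31 in NZB_W hearts 1, 2 and 3 and -0.89 and -1.19 in NZW hearts 1 and 2. In whole-heart RNA, fewer cells of a type and less RNA per cell cannot be told apart.

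The promoters of 4 genes named in the results below are shown first. The part of promoter sequence in the differences was not tested. Sequences and coordinates come from RefSeq for GRCm38.p6 (a C57BL/6J genome, not that of NZB or NZW), each 250 bases before to 50 after an annotated gene start, 5′ to 3′ on the gene's strand. Zfp52 had the largest difference of the 218 in the lower direction and Zfp939 in the higher one. In these first 2 windows capitals mark the GC box GGGCGG, read on both strands. Zfp942 and Zfp943 are divergent neighbours whose windows overlap by 194 bases, and in these windows capitals mark the shared bases.
Zfp52, chr17:21535289-21535588, + strand: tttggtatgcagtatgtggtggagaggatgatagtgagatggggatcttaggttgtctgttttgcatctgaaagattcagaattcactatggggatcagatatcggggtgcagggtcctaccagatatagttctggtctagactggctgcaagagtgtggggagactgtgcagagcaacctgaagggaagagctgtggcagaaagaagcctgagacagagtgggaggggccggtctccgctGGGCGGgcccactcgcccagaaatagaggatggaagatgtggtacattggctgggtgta
Zfp939, chr7:39449261-39449560, + strand: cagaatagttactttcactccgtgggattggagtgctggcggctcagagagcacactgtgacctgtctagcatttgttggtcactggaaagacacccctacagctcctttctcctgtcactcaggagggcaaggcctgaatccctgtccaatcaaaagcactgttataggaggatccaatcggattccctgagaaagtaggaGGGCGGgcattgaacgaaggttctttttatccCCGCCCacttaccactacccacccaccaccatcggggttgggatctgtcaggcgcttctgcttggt
Zfp942, chr17:21962415-21962714, - strand: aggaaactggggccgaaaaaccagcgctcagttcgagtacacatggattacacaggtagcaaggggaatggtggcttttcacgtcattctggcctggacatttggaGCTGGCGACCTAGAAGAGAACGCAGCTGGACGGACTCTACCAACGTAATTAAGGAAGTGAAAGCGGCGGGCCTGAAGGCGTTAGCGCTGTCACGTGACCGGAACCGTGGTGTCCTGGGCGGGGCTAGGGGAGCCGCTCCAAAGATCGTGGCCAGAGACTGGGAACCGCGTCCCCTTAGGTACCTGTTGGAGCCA
Zfp943, chr17:21962309-21962608, + strand: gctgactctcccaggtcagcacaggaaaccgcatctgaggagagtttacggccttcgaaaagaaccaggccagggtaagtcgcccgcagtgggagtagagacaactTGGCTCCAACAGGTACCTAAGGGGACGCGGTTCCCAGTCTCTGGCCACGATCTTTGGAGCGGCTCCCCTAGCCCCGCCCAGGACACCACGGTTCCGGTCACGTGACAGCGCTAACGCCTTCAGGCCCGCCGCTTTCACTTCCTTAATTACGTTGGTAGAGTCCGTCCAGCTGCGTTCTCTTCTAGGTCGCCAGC

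The Zfp52 window holds 1 GC box and the Zfp939 window 2, which do not overlap. Promoters of 178 of the 218 genes are in the table, taking the first start listed for each gene. The GC box was present in 52.8% of these 178 windows and in 35.9% of the 27025 promoters of all genes in the table. Those 27025 were not limited to genes kept by the brightness rule, as the members were. The part of that rule in this and the following contrasts was not tested. The CCAAT box (CCAAT, both strands) was present in 49.4% of the members' windows, against 37.9% of all, and the TATA box (TATAAA, both strands) in 7.3%, against 14.2%. The core of ETS factor sites (CCGGAAG, both strands) was present in 18.5%, against 9.12%. Each motif was searched on its own and none of the 4 letter strings contains another. A match is a description of letters and not a binding site. The members' windows had a median of 16 CpG sites and a GC content of 56.5%, against 7 and 52.7% over all promoters. The 41 windows of members whose NZB_W arrays all lay below both NZW arrays had a median of 12 CpG sites, against 17 in the other 137. The same split was not made over all promoters, and this difference was not tested.

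Most of the 218 genes lay slightly lower in NZB_W hearts, and no single one passed the test. The log2 difference, NZB_W minus NZW, was below 0 in 155 of the 218 (71.1%), above 0 in 62 and exactly 0 in 1, against 54.3% below 0 and 45.2% above 0 over all 11897 genes. The median difference was -0.06, against -0.01 over all genes, and the middle 50% of the members ran from -0.18 to 0.01. These shifts are small beside the error of a single gene, since the median SE of a member was 0.106. In 45 members (20.6%) every NZB_W array lay below both NZW arrays, where 9.84% of all genes did so. In 7 members (3.21%) every NZB_W array lay above both, where 7.59% of all genes did so. These counts change with single arrays: without NZW array 1, 89 members were lower and 24 higher without overlap (26.3% and 21.4% of all genes), without NZW array 2, 74 and 21 (21.3% and 17.5%), and without NZB_W array 1, 48 and 15 (12.1% and 12.6%). Differences below -0.5 were found in 9 members, or 4.13%, where 1.24% of all genes had one, and above 0.5 in 2, or 0.917%, where 2.28% did. Medians and counts over a family share arrays and are descriptions, not tests.

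With limma and Benjamini-Hochberg adjustment over all 11897 genes, 0 of the 218 had an adjusted p under 0.05, where 0.00841% of all genes, a single gene, did. The smallest adjusted p of a member was 0.218. At an unadjusted p under 0.05, 20 members were lower, or 9.17% of them, where 3.03% of all genes were, and 3 were higher, or 1.38%, where 2.5% of all genes were. The variance models with an intensity trend, with robust estimation and with array weights also called 0 members. Because no member passed, every gene below is given by its values, and "lower" and "higher" describe the group means.

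**Figure D1:**
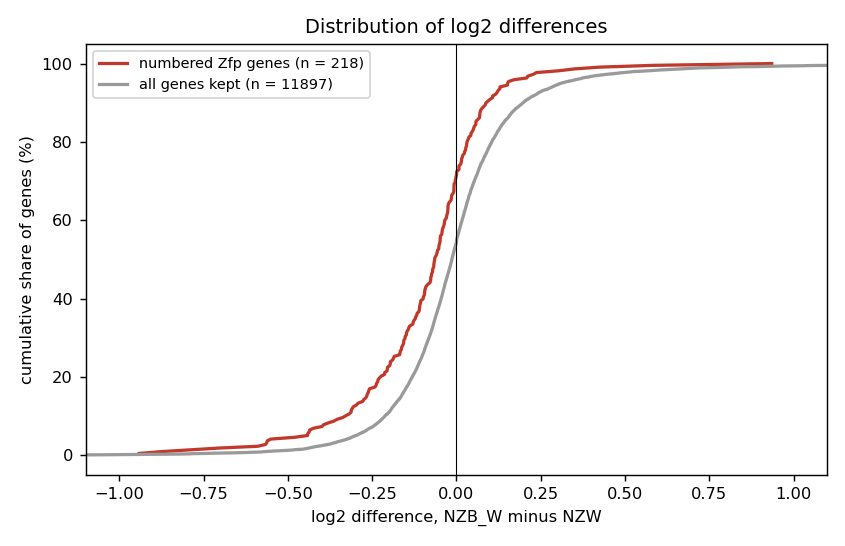
Cumulative share of genes (y axis, percent) by log2 difference, NZB_W minus NZW (x axis), for the 218 numbered Zfp genes and for all 11897 genes kept. The curve of the numbered Zfp genes lies left of the curve of all genes through its middle, crossing 0 at about 71.1% against 54.3%.

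When the 218 were split by mean level, the median difference was -0.07 in the dim 73, -0.07 in the middle 72 and -0.06 in the bright 73. Genes lower without overlap numbered 17, 17 and 11 in these sets (23.3%, 23.6% and 15.1%, against 9.84% of all genes), and genes higher without overlap 5, 0 and 2 (6.85%, 0.0% and 2.74%, against 7.59%). NZB_W array 1 gave the lowest value of the 5 in 101 members (46.3%), where it did so in 33.5% of all genes. NZW array 2 gave the highest value in 67 members (30.7%), where it did so in 22.6% of all genes. A tie was credited to the first array in the order NZB_W 1 to 3, then NZW 1 and 2. NZB_W array 1 thus takes every tie it shares, and exact ties were in 56.9% of members against 46.5% of all genes. Relative to the midpoint of each gene's group means, the members' medians were -0.05, -0.002 and -0.01 on NZB_W arrays 1, 2 and 3, against 0.01 and 0.04 on NZW arrays 1 and 2. Without NZB_W array 1 the members' median difference was -0.05, against 0.0 over all genes, and without NZB_W array 3 it was -0.06, against -0.02. The part of the cell types whose markers are given above in the members' shift was not tested. Without NZB_W array 3 the share of members below 0 was 74.3%, against 56.6% of all genes. That share was 61.9% without NZB_W array 1 (49.2% of all genes), 71.1% without NZB_W array 2 (54.8%), 68.3% without NZW array 1 (53.2%) and 66.1% without NZW array 2 (53.6%).

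**Figure D2:**
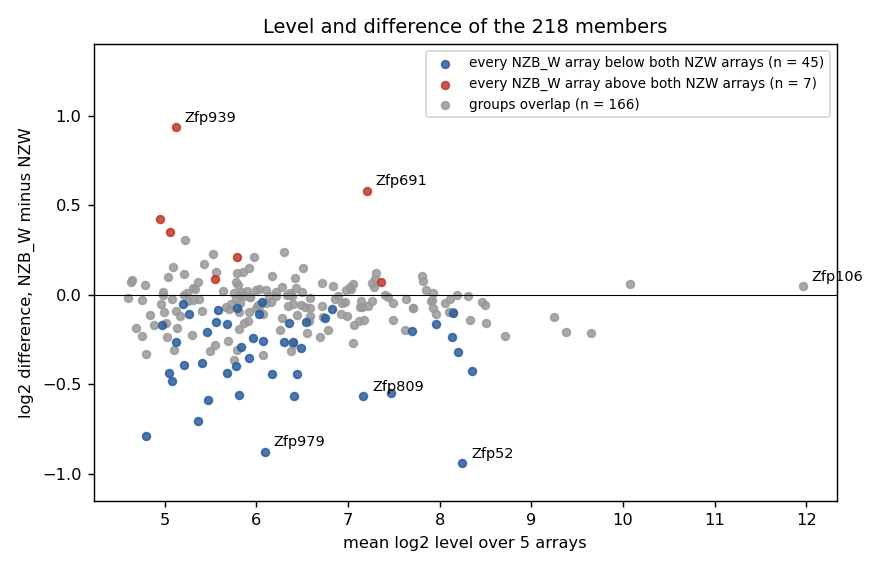
Mean log2 level over 5 arrays (x axis) and log2 difference, NZB_W minus NZW (y axis), of the 218 members, coloured by whether the groups overlap. The 45 members lower without overlap run from mean levels of 4.80 to 8.35, and Zfp106, the brightest member, lies at 0.05.

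Zfp52, whose own function is little known, had log2 levels of 7.78, 7.91 and 7.92 in NZB_W hearts, against 8.70 and 8.92 in NZW hearts. The groups are well separated, with every NZB_W heart below both NZW hearts on a fairly bright probe set. The means were 7.87 ± 0.0779 (SD, n = 3) and 8.81 ± 0.155 (SD, n = 2), a 1.92-fold lower level in NZB_W (log2 difference -0.94, SE 0.0967, 95% interval -1.19 to -0.69, limma adjusted p = 0.235). A dimmer Zfp52 probe set differed by nearly as much, at -0.90 (SE 0.233), with 5.01, 5.65 and 5.58 in NZB_W hearts against 6.18 and 6.45 in NZW hearts. Leaving out any single array kept the difference of the brighter probe set between -1.05 and -0.83.

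Zfp809 is a KRAB zinc finger protein that silences endogenous and infecting murine leukemia viruses in mouse embryonic cells by binding their primer binding site. Its log2 levels were 6.85, 6.96 and 7.01 in NZB_W hearts, against 7.53 and 7.48 in NZW hearts. The groups did not overlap and the arrays within each group lay close together. The level was 1.48-fold lower in NZB_W (log2 difference -0.57, SE 0.0743, 95% interval -0.76 to -0.37, limma adjusted p = 0.473). Of the 23 kept genes in the list of members with known roles, this alone was lower without overlap (4.35%, against 9.84% of all genes). In the same list 1 gene was higher without overlap (4.35%, against 7.59% of all genes).

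Zfp979 had levels of 5.51, 5.72 and 5.99 in NZB_W hearts, against 6.70 and 6.53 in NZW hearts. It was 1.84-fold lower in NZB_W (log2 difference -0.88, SE 0.161, limma adjusted p = 0.588), and its NZB_W values spread more widely than those of Zfp52. Zfp995 had 5.44, 5.61 and 5.73 in NZB_W hearts, against 6.02 and 6.28 in NZW hearts, a difference of -0.56 (SE 0.129), and its dimmer probe set differed by -0.70 (SE 0.236). Zfp788 had 6.25, 6.33 and 5.98 in NZB_W hearts, against 6.65 and 6.84 in NZW hearts, a difference of -0.56 (SE 0.136). These 3 are named for the size of their p alone, and no function is described for them here. The other members among the 12 with the smallest p in the lower direction (Zfp810, Zfp3, Zfp59, Zfp868, Zfp551, Zfp24 and Zfp942) differed by -0.44 to -0.26, all without overlap, which a choice by small p favours. For Zfp24 this is the brightest of 6 probe sets that disagree in direction.

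**Figure D3:**
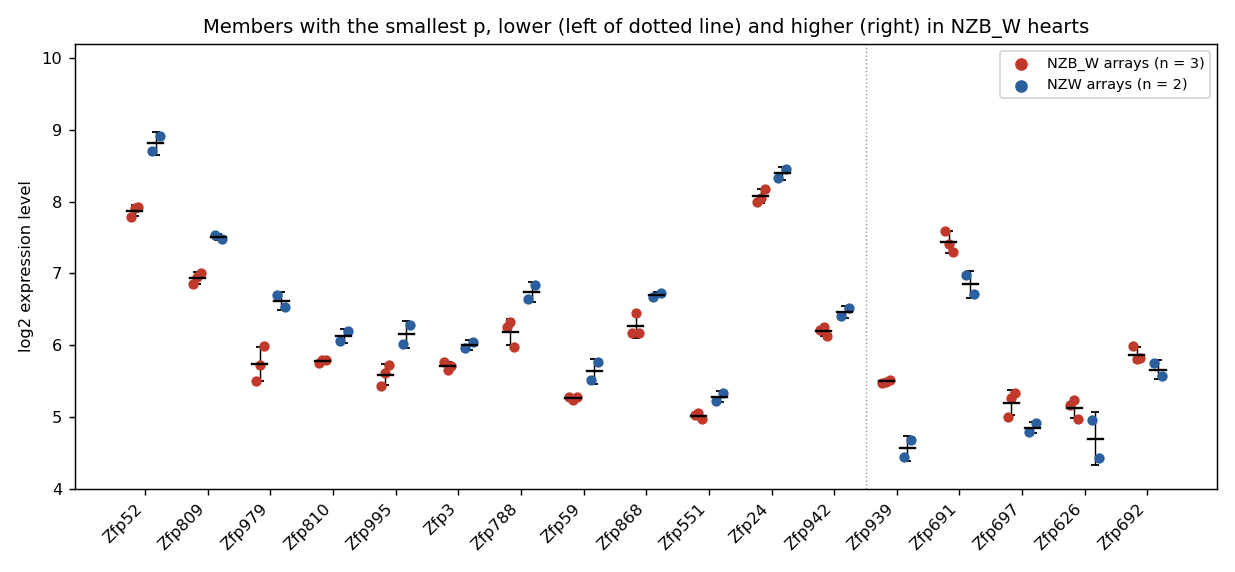
Log2 expression level (y axis) on each array for the 12 members with the smallest p in the lower direction and the 5 in the higher direction. Points are arrays, with NZB_W (n = 3) left of NZW (n = 2) for each gene, black lines are group means and bars are SD. Zfp52 has NZB_W values of 7.78 to 7.92 below NZW values of 8.70 and 8.92, Zfp939 shows the opposite order at a dim level, and Zfp24 is drawn by its brightest probe set, with which 1 other disagrees in direction.

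Across all 45 members lower without overlap, the median difference was -0.27 and the range -0.94 to -0.04. Of these, 9 differed by more than 0.5 in size, and in 20 the 95% interval lay below 0. The intervals are not adjusted for the number of genes, and a choice by separated arrays favours intervals away from 0. With limma, 0 members had an adjusted p under 0.05. In the remaining 25 the arrays are ordered by group but the interval reaches 0.

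Zfp939 was the member with the smallest p overall and lay higher in NZB_W hearts. Its levels were 5.47, 5.49 and 5.52 in NZB_W hearts, against 4.44 and 4.68 in NZW hearts. The NZB_W values lie close together above the array medians, while the NZW values lie at them, 1 below and 1 above. The NZW level is no higher than that of the kidney and liver markers in these hearts and is not shown to be above background, so no fold is given. The log2 difference was 0.93 (SE 0.0913, 95% interval 0.70 to 1.17, limma adjusted p = 0.218), and it ran from 0.81 to 1.06 with any single array left out. Zfp939 has 1 probe set above the filter, so no other reading of it was available.

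Zfp691 had levels of 7.60, 7.41 and 7.29 in NZB_W hearts, against 6.99 and 6.72 in NZW hearts, a difference of 0.58 (SE 0.132, limma adjusted p = 0.742). It was the brightest member to differ by more than 0.5 in the higher direction. Zfp697, reported in mouse skeletal muscle as a regulator of inflammation and remodelling, had 5.0, 5.26 and 5.34 in NZB_W hearts, against 4.79 and 4.91 in NZW hearts, a difference of 0.35 (SE 0.123). Its groups did not overlap, at dim levels. The other members higher without overlap were Zfp626 (0.42, SE 0.186), Zfp692 (0.21, SE 0.0975), Zfp652 (0.09) and Zfp991 (0.07), the last of these named after its values were seen. The dimmer Zfp652 probe set was at -0.03. Among the further members with the smallest p in the higher direction, Zfp469, whose human counterpart is mutated in brittle cornea syndrome, differed by 0.30 (SE 0.171), Zfp446 by 0.15 (SE 0.108) and Zfp414 by 0.12 (SE 0.0856), with overlapping groups.

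Of 30 genes listed for known roles, 23 were kept, Zfp423, Zfp57 and Zfp711 were left out as dim, and 4 (Zfp260, Zfp143, Zfp69 and Zfp161) had no probe set of that single symbol and were not analysed here. Of the 23, 15 were lower and 8 higher, with a median difference of -0.06 and a range of -0.57 to 0.15. At an unadjusted p under 0.05, 1 of the 23 was lower and 0 higher, where 3.03% and 2.5% of all genes were.

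Zfp106, an RNA-binding protein needed for the upkeep of motor neurons and muscle in mice, was the brightest member, with 11.82, 11.98 and 12.15 in NZB_W hearts against 11.85 and 12.01 in NZW hearts. The groups overlapped fully, and the difference was 0.05 (SE 0.121, 95% interval -0.27 to 0.37). Zfp622, whose human counterpart takes part in maturation of the large ribosomal subunit, had 9.92, 10.07 and 10.30 in NZB_W hearts against 9.91 and 10.17 in NZW hearts, a difference of 0.06 (SE 0.148). Zfp91, a ubiquitin ligase of the non-canonical NF-kappaB pathway, had 9.33, 9.56 and 9.81 in NZB_W hearts against 9.56 and 9.998 in NZW hearts, a difference of -0.21 (SE 0.203). In these 3 bright genes the spread within a group was as large as the difference between groups. Each also had a dimmer probe set of the opposite sign, reaching -0.38 for Zfp106, -0.03 for Zfp622 and 0.02 for Zfp91.

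Zfp148, which binds GC-rich promoters, differed by -0.21 (SE 0.118), and Zfp281, its relative with a role in pluripotency, by -0.08 (SE 0.0715). Zfp445, which protects imprinting marks together with Zfp57, differed by -0.13 (SE 0.0859). Zfp568, a KRAB protein that represses a placental transcript of Igf2 in mouse embryos, differed by -0.06 (SE 0.0763), and Zfp932, which represses endogenous retroviruses in mouse embryonic stem cells, by -0.03 (SE 0.0992). The groups overlapped in each of these genes, read by its brightest probe set. Of the 6 bright Zfp148 probe sets, 1 was lower without overlap and 1 lay above 0. Of Zfp809, Zfp568 and Zfp932, picked for their known roles, the groups were separated for Zfp809 alone. These genes do not stand for all KRAB repressors among the members, and the differences between them were not tested.

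Members linked to fat and mesenchymal cell fate also overlapped between the groups. Zfp638, a cofactor of adipocyte differentiation, differed by 0.08 (SE 0.132). Zfp467, which favours adipocyte over bone cell fate, differed by 0.10 (SE 0.174), Zfp516, a brown fat activator, by 0.04 (SE 0.0576), and Zfp521, which opposes adipocyte differentiation, by -0.20 (SE 0.126). Among general regulators, Zfp384 differed by 0.11 (SE 0.0867), Zfp207, a spindle assembly factor, by -0.14 (SE 0.137), Zfp335, needed for neural progenitors, by -0.07 (SE 0.0663), and Zfp410, an activator of Chd4, by 0.06 (SE 0.0888). Zfp131, Zfp90, Zfp110 and Zfp318 differed by -0.10 to -0.004, and in each the groups overlapped. A dimmer probe set had the opposite sign for Zfp638 (-0.13), Zfp467 (-0.12), Zfp521 (0.09), Zfp410 (-0.08) and Zfp318 (0.02).

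Many numbered Zfp genes are neighbours in the genome. In the gene order of GRCm38.p6, used here only for which protein-coding genes adjoin, 77 of the 218 members sit beside another member, in 28 runs of 2 to 7 genes. The median difference was -0.08 over these 77 and -0.05 over the other 141. Of the 77, 21 (27.3%) were lower and 2 (2.6%) higher without overlap, and of the other 141, 24 (17%) were lower and 5 (3.55%) higher, where 9.84% and 7.59% of all genes were. The difference between these sets was not tested. By the probe set standing for each gene, every member was lower in 13 runs and higher in 2, and in 13 the members were not all on one side. Zfp397, Zfp35 and Zfp24 form a run counted as lower, though Zfp397 and Zfp24 each have another probe set higher without overlap. Neighbouring members can be copies of one another with similar sequences, so they are not independent readings.

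The run Zfp51, Zfp53, Zfp52 and Zfp948 held the largest difference next to one near 0. Zfp52 differed by -0.94 and Zfp53 by -0.59 (SE 0.238), with Zfp53 at 4.79, 5.45 and 5.47 in NZB_W hearts against 5.78 and 5.87 in NZW hearts. Zfp51 differed by -0.15 (SE 0.108) and Zfp948 by 0.03 (SE 0.0665), and in both the groups overlapped. The differences within this run therefore ranged from -0.94 to 0.03 among adjoining genes.

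The run Zfp995, Zfp942 and Zfp943 was the one run of 3 or more in which every member was lower without overlap. Zfp942 had 6.21, 6.25 and 6.13 in NZB_W hearts, against 6.40 and 6.52 in NZW hearts, a difference of -0.26 (SE 0.074). Zfp943 had 8.23, 8.42 and 7.89 in NZB_W hearts, against 8.68 and 8.53 in NZW hearts, a difference of -0.42 (SE 0.175). These are the divergent genes whose overlapping promoter windows are printed above. One further couple of members, Zfp944 and Zfp758, has windows that overlap on opposite strands (162 bases), and these differed by -0.26 and -0.15 with overlapping groups. A dimmer Zfp944 probe set, at -0.55, was lower without overlap. In the longest run, of 7 genes, Zfp27, Zfp74 and Zfp82 were lower without overlap (-0.44, -0.39 and -0.17), while Zfp420, its end member, was at 0.24 with overlapping groups.

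**Figure D4:**
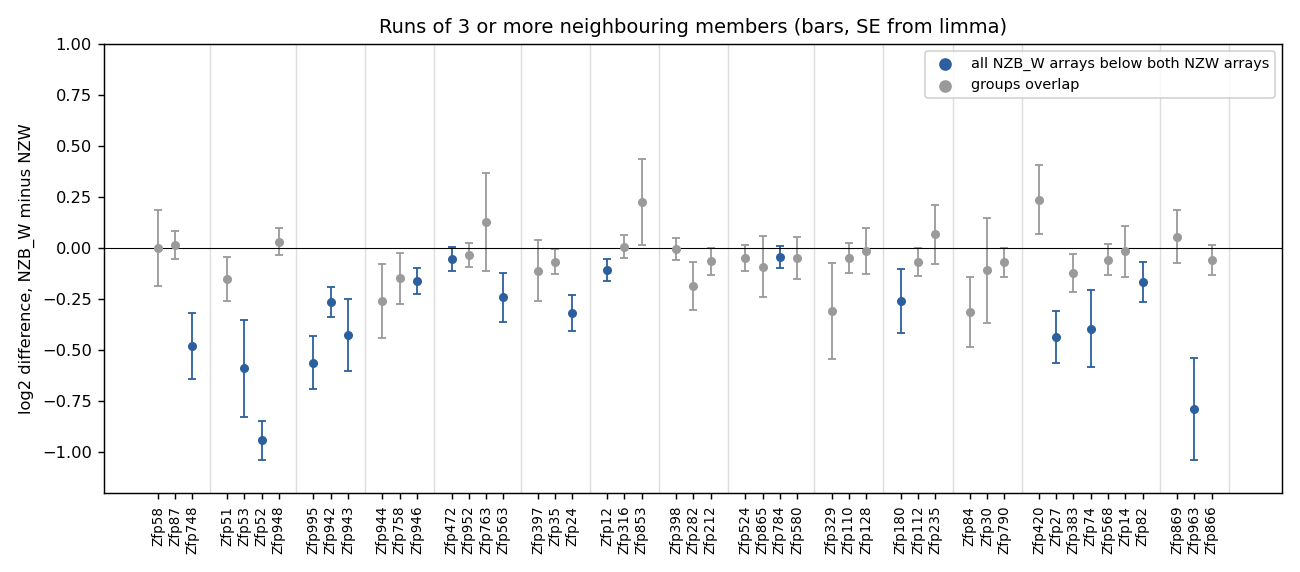
Log2 difference, NZB_W minus NZW, with limma's SE (y axis) for the members of each run of 3 or more neighbouring members, in genome order along the x axis, with grey lines between runs. Blue points are genes whose NZB_W arrays all lie below both NZW arrays. Every gene of the Zfp995, Zfp942 and Zfp943 run is blue, while most runs hold blue and grey points together.

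Probe sets of one gene did not always give one answer. Of the 574 probe sets of numbered Zfp genes with a single symbol, 311 passed the brightness filter, and 63 of the 218 members had more than 1 such probe set. In 34 of the 63 all bright probe sets were lower in NZB_W, in 4 all were higher, and in the remaining 25 they were not all on one side. When probe sets were tested on their own, 226 of the 311 (72.7%) were below 0, where 54.9% of all 20211 probe sets were, and 0 had an adjusted p under 0.05, where 0.0247% of all probe sets did. In 55 of the 311 the NZB_W arrays all lay below both NZW arrays, where 9.94% of all probe sets did so, and in 11 above, where 6.73% did so. At an unadjusted p under 0.05, 23 of the 311 were lower, where 2.97% of all probe sets were, and 5 were higher, where 2.18% were. The smallest adjusted p of these 311 was 0.21, for Zfp939.

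Zfp24, a regulator of oligodendrocyte maturation and the vessel growth factor Vegfa, had the widest disagreement. Its brightest probe set (1426895_at) read 8.0, 8.05 and 8.18 in NZB_W hearts, against 8.33 and 8.46 in NZW hearts, a difference of -0.32 (SE 0.0879). Another (1426896_at) read 6.12, 6.47 and 6.01 in NZB_W hearts, against 6.92 and 7.38 in NZW hearts, a difference of -0.95 (SE 0.207). A further one (1422810_at) went the other way, with 7.00, 7.23 and 7.23 in NZB_W hearts against 6.29 and 5.95 in NZW hearts, a difference of 1.03 (SE 0.143, limma adjusted p = 0.41 over probe sets). All 3 separated the groups without overlap, in opposite directions, and the other 3 bright probe sets differed by -0.38 to -0.17 with overlapping groups. The files do not say which transcript or exon each probe set reads, or whether strain sequence differs under its probes. No direction is stated for the gene, and it enters the counts of lower members by its brightest probe set alone.

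**Figure D5:**
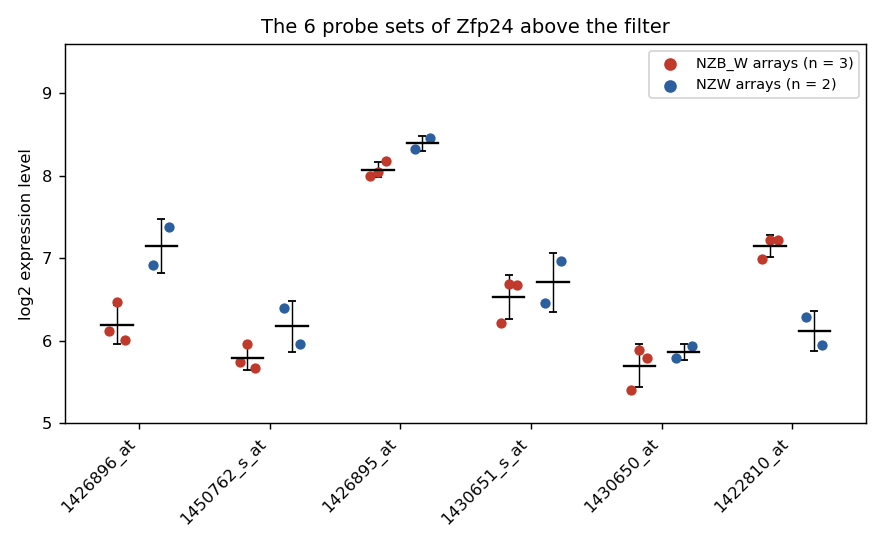
Log2 level (y axis) of the 6 bright Zfp24 probe sets (x axis) on each array, ordered by their difference, with NZB_W (n = 3) left of NZW (n = 2), means as black lines and SD as bars. 1426896_at, at the left, lies lower in NZB_W hearts and 1422810_at, at the right, lies higher.

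The next widest disagreements were smaller. Probe sets of Zfp451 differed by -0.24 to 0.27, of Zfp397 by -0.11 and 0.35, of Zfp106 by -0.38 to 0.05, of Zfp703 by -0.27 and 0.15, and of Zfp462 by -0.23 and 0.15. The dimmer Zfp397 probe set, at 0.35 (SE 0.087), separated the groups without overlap and its brighter one, at -0.11 (SE 0.151), did not. Of the representative probe sets, 192 had the plain ending, 7 ended in _s_at, 9 in _x_at and 10 in _a_at, endings that mark probes shared by several transcripts or prone to bind related ones. Reads of close relatives in this family can therefore be mixed, and no value here separates them.

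The members with the widest spread within the NZB_W group overlapped the NZW group. Zfp101 had 6.10, 6.42 and 5.29 in NZB_W hearts against 6.21 and 6.34 in NZW hearts, and NZB_W array 3 was the lowest of the 5, with a difference of -0.34 (SE 0.355). Zfp503, a developmental repressor, had 4.89, 5.33 and 5.89 in NZB_W hearts against 5.80 and 5.57 in NZW hearts. Zfp217, Zfp770 and Zfp30 had SD values of 0.441, 0.417 and 0.413 over the NZB_W arrays and differed by -0.01, -0.04 and -0.11.

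The corepressors that KRAB proteins call on lay near the median of all genes. Of 35 listed names, 33 are on the arrays and 32 were kept, with 19 lower and 13 higher and a median difference of -0.02. In 4 of them (12.5%) the NZB_W arrays all lay below both NZW arrays and in 2 (6.25%) above, near the 9.84% and 7.59% of all genes. Atf7ip, the partner of Setdb1, had the smallest p at -0.25 (SE 0.083), followed by Gatad2a, a subunit of the NuRD complex, at 0.29 (SE 0.11), Cbx1, a heterochromatin protein, at -0.17 (SE 0.072) and Pphln1, of the HUSH complex, at -0.26 (SE 0.146). At an unadjusted p under 0.05, 1 of the 32 was lower and 1 higher, where 3.03% and 2.5% of all genes were. After adjustment 0 passed.

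Other gene families named for zinc fingers were read in the same way. Of 35 Zbtb genes kept, 21 were lower, 13 higher and 1 at 0 (median -0.04), with 4 (11.4%) lower and 3 (8.57%) higher without overlap, where 9.84% and 7.59% of all genes were. Of 14 Zscan and Zkscan genes, many of which encode proteins akin to KRAB zinc fingers, 9 were lower, 4 higher and 1 at 0 (median -0.04), with 4 (28.6%) lower and 0 higher without overlap, namely Zkscan5 (-0.25), Zscan12 (-0.42), Zscan26 (-0.25) and Zkscan8 (-0.22). Of 15 Zc3h genes the median was -0.02, of 19 Zdhhc genes, which encode palmitoyl transferases, 0.01, and of 7 Zfyve genes, which bind endosomal lipids, -0.04. At an unadjusted p under 0.05, 1 Zbtb gene (Zbtb12, 0.37, SE 0.0796) was higher, where 2.5% of all genes were. At the same cut 1 Zscan or Zkscan gene (Zkscan5, SE 0.0694) was lower, where 3.03% of all genes were. None passed after adjustment. Differences between these families were not tested.

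At the edge of the brightness rule, Zfp14 (2 arrays above the median), Zfp513 (3) and Zfp352 (3) were the dimmest kept, with mean levels of 4.60, 4.63 and 4.64. The brightest left out were Zfp954, Zfp189 and Zfp41, each above the median on 1 array, with mean levels of 4.60, 4.60 and 4.59. Among the 86 left out, 75 lay above the median on no array. The deposited values carry ties: 124 of the 218 members (56.9%) had the same value, to 6 decimals, on at least 2 arrays, against 46.5% of all genes kept, and 28 members had the same value on both NZW arrays. On all 3 NZB_W arrays, 7 members had the same value. A tie across all arrays of a group gives that group an SD of 0 or close to it, while a tie of only some arrays need not. The SD of a gene tied across a group understates its error, and the moderated SE is the error to read.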

How the data were processed

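RNA from 5 hearts was hybridised to Affymetrix mouse expression arrays, which hold 45101 probe sets, each a group of short probes read as 1 value. The values used are the log2 expression values the authors deposited in the series matrix. Per the submitters' processing notes, the tools were GCRMA, RMA and Partek, with no role or order given for any of them. No column was left unused (0 columns). Of these, 34958 have 1 annotated symbol, 932 several and 9211 none (64 of the 45101 are control probe sets), and only those with 1 symbol were given a gene. The annotation can be old.

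The brightest probe set stood for a gene, and genes above the array median on at least 2 arrays were fitted by limma's lmFit and eBayes (limma 3.58.1, R 4.3.3), with NZB_W minus NZW as the contrast, with Benjamini-Hochberg adjustment over 11897 genes or, for single probe sets, over 20211. The spread had 3 residual and 1.69 prior degrees of freedom. In simulated data with 3 against 2 arrays and 11897 genes, 61.2% of 67 genes changed by 1 on the log2 scale were called, 83.6% of 67 changed by 2 and 98.5% of 66 changed by 3, with 5 false calls. The many large changes put into the simulated data loosen the adjusted cutoff, whereas 1 gene passed in the real data. These shares therefore do not give the recovery to be had in the real comparison.

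Members named are those with the smallest p (12 per direction), the 5 brightest, the 6 with the widest disagreement of probe sets, the 5 with the largest SD in NZB_W, those at the edge of the filter, those of a list of known roles, and neighbours of these. Up to 4 genes with the smallest p are named in a comparison list. The members and lists were chosen with earlier results of these data known. Alternatives were other normalisations, filters, probe set choices, variance models, a replicate block and leaving out arrays. Promoter composition and motifs were described after the files were seen, and protein sequences were not used here. Gene order comes from RefSeq for GRCm38.p6.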

Additional observations from a re-analysis of the deposited data

How the results depend on the processing

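In each of the 18 alternatives 0 members had an adjusted p under 0.05. The smallest member value was 0.0932, for Zfp939 with array weights. The members' median difference ran from -0.08 to -0.05, below that of all genes in every alternative. The fit with the replicate number as a block gave 0 called members and a median of -0.06. The arrays share only numbers 1 and 2, which the labels do not tie to a common animal or day, and the correlation of their within-group differences was -0.14. With no filter on dim probe sets, 13 of 304 were higher without overlap, where 6.64% of all genes were. With 1 array left out, 48 to 89 members were lower and 8 to 24 higher without overlap, where 12.1% to 26.3% and 10.5% to 21.4% of all genes were. With NZB_W array 3 and NZW array 2 both left out, 88 were lower and 29 higher, where 31.8% and 23.6% of all genes were. Fewer arrays make such separation easier by construction. Where 1 NZW array is left, it is assumed to vary like the NZB_W arrays. With the most variable probe set standing for the gene, Zfp24 was at 1.03. Of 1208 values of named genes under the alternatives, 1139 moved by less than the replicate SD, 68 by more, and 1, for Zfp24, by more and past 0. In all, 72 values of 28 of the 73 named members were opposite in sign to the reported one, and 5 of the 28 had a reported difference over 0.2 in size (Zfp101, Zfp24, Zfp451, Zfp703 and Zfp91). With 3 against 2 arrays, and levels near the array median for the dim members, small differences were not detectable.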
